A study of Danio rerio with 8 samples.

Results

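The genes of the cytosolic ribosomal proteins were compared between zebrafish larvae mutant for seph, now named selenoh, which encodes the nuclear selenoprotein H, and wild type larvae. Members were the genes whose symbol is rpl, rps or rplp followed by a number and at most one letter a, x or y, or rpsa. This rule found 65 of the 32434 genes in the count table, 37 of the large and 28 of the small ribosomal subunit, under 62 symbols. Some symbols, rpl5 and rps26 among them, belong to a pair of gene IDs. How reads that match both copies of a pair were counted is not given in the sources used here, so the values of such copies are uncertain. Ribosomal proteins that carry another kind of symbol, such as rack1, fall outside the rule, and those matched are described after the members. Not every cytosolic ribosomal protein is covered, since no gene ID in the count table carried the symbol rpsa, rps3 or rplp2, among others.

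Whole larvae were taken at 5 days post fertilization, and polyadenylated RNA of 4 samples labelled SepH mutant and 4 labelled WT was sequenced. The labels give the genotype as the one difference between the groups. They name no allele, and neither the number of larvae pooled nor the clutches behind the samples are stated. P-values therefore measure how these samples vary, a spread that may be technical. The libraries held 51246749 to 56409917 counts. Selenoh had 737 to 1225 counts in wild type and 0 to 20 in the mutant, so each library matched its label (two-sided exact permutation p = 0.0286, the lowest value possible with these group sizes). On the second principal component, with 22.4% of the variance, replicate 3 of both genotypes lay far from the rest, so the counts of calls are also given without that pair.

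A ribosome consists of a small subunit, which binds the mRNA and reads its codons, and a large subunit, which joins the amino acids. Each holds ribosomal RNA and a set of proteins, most of them present in a single copy, and the mRNAs of these proteins share a tract of pyrimidines at their 5′ end, the terminal oligopyrimidine (TOP) motif, through which the kinase mTOR controls their translation. Growing larval tissues make ribosomes throughout, so these mRNAs come from nearly every cell type in the sample. Some ribosomal proteins also act outside the ribosome. In mammals Rpl5 and Rpl11, bound to each other with 5S ribosomal RNA, inhibit the ubiquitin ligase Mdm2 when ribosome assembly is disturbed.

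Ribosomal protein mRNAs lay lower in the mutant by nearly the same factor, with the median member at 77.7% of its wild type level. Of the 65 members, 64 had a log2 fold change below 0, and the mutant mean was between 76.5% and 78.7% of the wild type mean for the middle 50% of members. The median log2 fold change was -0.37 for the large and -0.36 for the small subunit, against 0.01 over all 27050 genes tested. The middle 50% of members spanned 0.04 on the log2 scale, whereas the middle 50% of all genes spanned 0.56. In these bulk samples, fewer cells rich in ribosomal protein mRNA and less of that mRNA per cell cannot be told apart.

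Libraries of 1 genotype also differed among themselves, and most members did not pass the test. In edgeR's quasi-likelihood test with Benjamini-Hochberg adjustment at 0.05, 15 of 65 members (23.1%) fell and none rose, against a background of 8.45% of all tested genes called lower and 17.1% called in either direction. The fallen members were 11 of the large and 4 of the small subunit, and 39 more had an adjusted p between 0.05 and 0.1. Without adjustment 61 members were lower at p under 0.05 and 0 were higher, against 15.8% and 16.1% of all tested genes. No member was higher in the DESeq2 Wald test or in limma-voom either, which called 57 and 61 members lower, against 12.3% and 17.6% of all genes. The mutant and wild type libraries did not overlap for 33 members (50.8%), always with the mutant lower, against 11.1% of all tested genes that were lower without overlap.

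Samples with the same replicate number deviated together mainly in replicates 3 and 4, a pairing seen in these data and not stated in the labels. Mutant replicate 1 correlated about as well with wild type replicate 2 (r = 0.196) as with wild type replicate 1 (0.202). Mutant replicate 2 correlated slightly better with wild type replicate 1 (0.181) than with wild type replicate 2 (0.16). With the replicate number as a block 56 of 65 members fell (86.2%), where 13.4% of all genes were called lower. They were 29 of the large and 27 of the small subunit, and held all 15 of the unblocked fit. The count of 15 also turned on single libraries. It was 57 without wild type replicate 3 (12.3% of all genes) and 24 without mutant replicate 4 (6.49%), but 2 without mutant replicate 3 (8.47%). It was 1 without mutant replicate 1 (4.85%) or mutant replicate 2 (4.97%), and also 1 without wild type replicate 1 (4.73%), wild type replicate 2 (4.51%) or wild type replicate 4 (6.36%). Without both replicate 3 libraries it was 49, where 14.6% of all genes were called lower. Scaling by library size alone, which sets the median of all genes at 0.08, gave 3 lower members, 6.09% of all genes lower and a members' median of -0.28.

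The members moved up and down together from library to library as well as between the genotypes. Relative to the wild type mean, the mean log2 level over all members was 0.02, 0.15, -0.19 and 0.02 in wild type replicates 1 to 4. In the mutant it was -0.50, -0.28, -0.47 and -0.16. Wild type replicate 3, the lowest of its group, thus lay just below mutant replicate 4, the highest of the mutant group. Between libraries of the same number the mutant was lower in all 4 pairs, by 0.52, 0.43, 0.28 and 0.18 on the log2 scale. All 65 members had their highest wild type level in replicate 2, and 64 their lowest in replicate 3. In the mutant, 64 were highest in replicate 4, and 48 were lowest in replicate 1 and 16 in replicate 3. Over the 8 libraries the median member had an SD of 0.24 in log2 CPM, which came to 0.04 once each library's mean over the members was taken off.

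**Figure D1:**
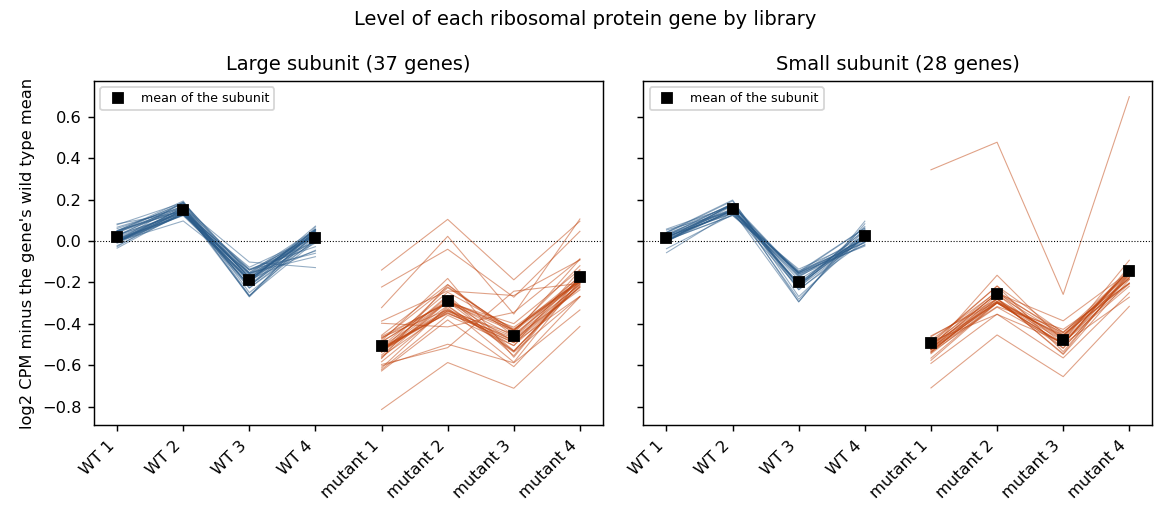
Level of each ribosomal protein gene (thin lines) in each library, as log2 CPM (counts per 1000000 TMM-scaled counts) minus the wild type mean of the same gene, for the large (left) and small subunit (right); squares are the mean over the subunit. Nearly all genes follow the same course, highest in wild type replicate 2 and lowest in wild type replicate 3 within wild type, and the mutant means lie below those of the wild type libraries in both panels except that mutant replicate 4 lies just above wild type replicate 3.

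As a share of all counts, the members took 5.79%, 6.21%, 5.38% and 6.11% in wild type replicates 1 to 4 and 4.39%, 5.00%, 4.46% and 5.46% in the mutant ones. The means were 5.87% ± 0.373 in wild type and 4.83% ± 0.505 in the mutant (SD, n = 4 each), a fall of 17.8%. Here too wild type replicate 3 lay just below mutant replicate 4. The large subunit took 3.61% ± 0.226 in wild type and 2.98% ± 0.299 in the mutant, and the small subunit 2.26% ± 0.148 and 1.85% ± 0.207 (SD, n = 4 each). Both subunits fell by a like part of their share, 17.5% and 18.2%. The digestive enzyme genes of the pancreas list took 1.34% to 3.08% of wild type counts and 0.011% to 0.025% of mutant counts, and with those counts left out the fall in the ribosomal protein share was 19.8%.

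**Figure D2:**
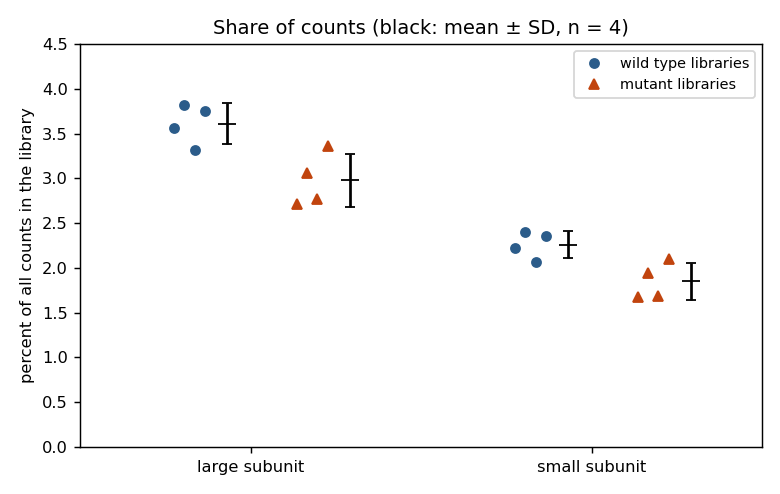
Percent of all counts in each library that fell on large and small subunit genes; circles are wild type and triangles mutant libraries, and black marks are the mean ± SD of 4 libraries. The large subunit share is 3.61% in wild type and 2.98% in the mutant on average, with the highest mutant library above the lowest wild type library.

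Among large subunit genes, rpl10a, whose product sits at the stalk where used tRNA leaves the ribosome, had the largest decrease. Its level, in CPM (counts per 1000000 scaled counts), was 1099, 1185, 875 and 1085 CPM in wild type replicates 1 to 4 and 599.9, 702, 644 and 792 CPM in the mutant. All 4 mutant libraries lay below all wild type libraries. The mutant mean was 64.5% of wild type, a log2 fold change of -0.63 ± 0.13 (SE, adjusted p = 0.0117), and rpl10a passed in each of the 8 fits that left out 1 library (adjusted p = 0.00359 to 0.0415).

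The gene rpl3, for a core protein near the peptidyl transferase centre, came next. It had 2659, 2864, 2098 and 2515 CPM in wild type and 1657, 1782, 1675 and 1999 CPM in the mutant, again without overlap, and fell by 0.51 ± 0.13 on the log2 scale (adjusted p = 0.0235). It no longer passed when mutant replicate 1 or 2, or any of wild type replicates 1, 2 and 4, was left out (adjusted p up to 0.0732).

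The rpl5 copy ENSDARG00000015862 fell by 0.47 ± 0.13 (adjusted p = 0.0378), from 1114 ± 135 to 803 ± 98.1 CPM (SD, n = 4 each). Its lowest wild type library, replicate 3 at 920.0 CPM, was just above its highest mutant library, replicate 4 at 919 CPM. Other large subunit genes that fell were rpl34, rpl30, rpl6, rpl23a, rpl23, rpl7a, rpl4 and rpl39, all with log2 fold changes between -0.43 and -0.39. The rpl5 copy lost its call without any 1 library except mutant replicate 4 and wild type replicate 3 (adjusted p up to 0.108).

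**Figure D3:**
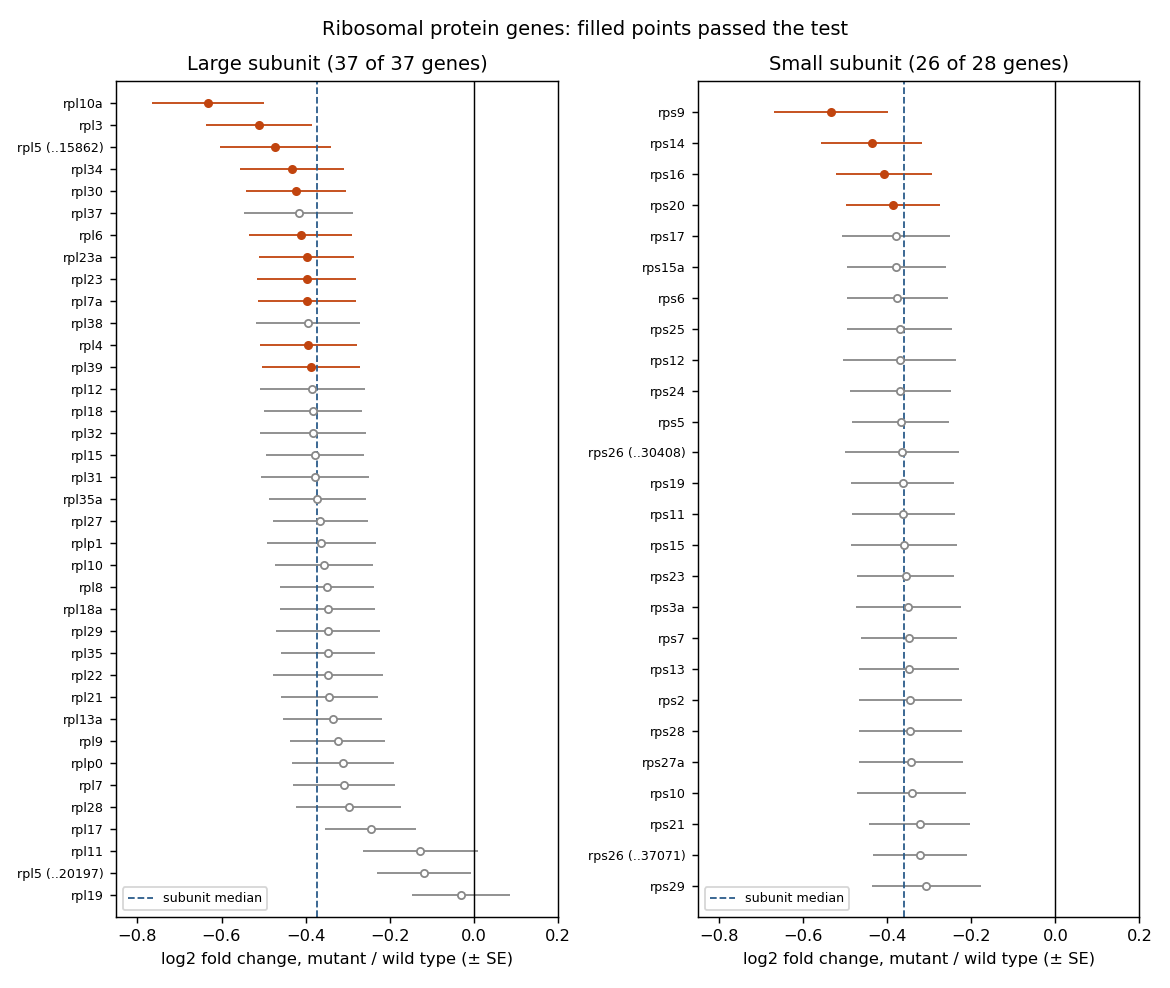
Log2 fold change of 37 large and 26 of the 28 small subunit genes in the mutant against wild type (± SE), for the large (left) and small subunit (right); filled points passed edgeR's quasi-likelihood test, open points did not, and the dashed line is the median of the whole subunit. Most genes lie close to medians of -0.37 and -0.36, with rpl19, rpl11 and a copy of rpl5 to the right and rpl10a, rpl3 and rps9 to the left.

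Most other large subunit genes stayed near the median without passing. The stalk protein genes rplp0 and rplp1, whose products recruit translation factors, had log2 fold changes of -0.31 ± 0.12 and -0.36 ± 0.13 (adjusted p = 0.113 and 0.0878). Rplp0 had 2030 to 2594 CPM in wild type and 1742 to 2187 CPM in the mutant, so that its groups overlapped. The gene rpl10, for a protein added late in large subunit assembly, was at -0.36 ± 0.12 (adjusted p = 0.0659). The values were -0.39 ± 0.12 for rpl38 (adjusted p = 0.0564), a gene needed for Hox protein synthesis in mice, and -0.34 ± 0.12 for rpl13a (adjusted p = 0.0837). For rpl22, whose loss blocks T cell development in mice, the value was -0.35 ± 0.13 (adjusted p = 0.103). With the replicate block rplp1, rpl10, rpl38, rpl13a and rpl22 fell (adjusted p = 0.0244 to 0.0317) and rplp0 did not pass (0.0726).

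Most small subunit genes lay closer together than most large subunit genes, though their full range was not narrower. Of 37 large subunit genes 31 lay within 0.1 (log2) of their median, and of 28 small subunit genes 26 lay within 0.1 of -0.36, their median. The gene rps9, lower than that range and coding for a protein of the small subunit body, had 1337, 1444, 1057 and 1333 CPM in wild type and 785, 938, 815 and 1032 CPM in the mutant. Its groups did not overlap, and it fell by 0.53 ± 0.14 on the log2 scale (adjusted p = 0.0269). The genes rps14 (-0.44 ± 0.12, adjusted p = 0.0365) and rps16 (-0.41 ± 0.11, adjusted p = 0.0387) also fell, as did rps20. Loss of 1 RPS14 allele is known from human 5q- syndrome. Each of rps9, rps14 and rps16 lost its call when any library other than mutant replicate 4 or wild type replicate 3 was left out (adjusted p up to 0.114).

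The gene rps6, for the protein phosphorylated by S6 kinase, had 1251 to 1601 CPM in wild type and 1004 to 1250 CPM in the mutant, without overlap, and a log2 fold change of -0.38 ± 0.12 (adjusted p = 0.0604). The gene rps19, mutated in Diamond-Blackfan anaemia in humans, was at -0.36 ± 0.12 (adjusted p = 0.0736), rps27a, which encodes a fusion of ubiquitin and a ribosomal protein, at -0.34 ± 0.12 (adjusted p = 0.0879), and rps29 at -0.31 ± 0.13 (adjusted p = 0.136). The rps26 copy ENSDARG00000037071 was at -0.32 ± 0.11 (adjusted p = 0.0791). With the replicate block these 5 genes fell (adjusted p = 0.0228 to 0.0348).

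To ask which members departed from the common shift, all genes were tested again with libraries scaled so that the geometric mean of the members was equal in each. This moves the zero point: the median of all genes became 0.36, and 24.7% of all genes were called, 2.82% lower and 21.9% higher. Of the 65 members 3 were called, among them rpl10a below the common shift and rpl19 above it, and 57 of 65 members had fold changes within 0.1 (log2) of the median of their subunit. The same 3 genes were called with the replicate block and in the DESeq2 Wald test. With each library's common level taken off, 4 members lay higher and 10 lower in every mutant library than in every wild type library, and 51 overlapped. Of all tested genes 22.7% lay higher and 3.14% lower in this way.

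The gene rpl19, for a protein that forms a bridge between the subunits, hardly differed between the groups. It had 1051, 1159, 935 and 1074 CPM in wild type and 954, 1131, 923 and 1124 CPM in the mutant, a log2 fold change of -0.03 ± 0.12 (adjusted p = 0.891), whose sign changed with the scaling. Relative to the members' common level it was 0.26 to 0.38 higher in the 4 mutant libraries than the wild type mean, while wild type libraries lay between -0.02 and 0.02. In the fit scaled to the members this difference was 0.32 ± 0.09 (SE, adjusted p = 0.0231). It stayed between 0.30 and 0.34 in the 8 fits without 1 library, but did not pass when mutant replicate 1 or 2, or any of wild type replicates 1, 2 and 4, was left out (adjusted p = 0.0582 to 0.0762).

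For rpl10a, the distance below the common shift was 0.28 ± 0.09 (adjusted p = 0.0432). It kept its size when 1 library was left out, 0.26 to 0.30 on the log2 scale, but it passed in only 1 of these 8 fits, the one without wild type replicate 3 (adjusted p = 0.0264), with adjusted p = 0.0533 to 0.124 in the others.

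The genes of the 5S particle, rpl5 and rpl11, were on both sides of the common shift. The second rpl5 copy, ENSDARG00000020197, had 875, 937, 789 and 911 CPM in wild type and 751, 852, 726 and 905 CPM in the mutant, so the groups overlapped, with a log2 fold change of -0.12 ± 0.11 (adjusted p = 0.51). For rpl11 the levels were 709, 804, 638 and 748 CPM in wild type and 578, 734, 566 and 778 CPM in the mutant, with a log2 fold change of -0.13 ± 0.14 (adjusted p = 0.569). Relative to the common level all 4 mutant libraries lay above all wild type libraries for both genes, and the first rpl5 copy lay below in all 4. In the fit scaled to the members these differences did not pass: 0.23 ± 0.09 for the second rpl5 copy (adjusted p = 0.0776), 0.22 ± 0.09 for rpl11 (0.1099) and -0.12 ± 0.09 for the first rpl5 copy (0.316). With limma-voom the second rpl5 copy and rpl11 passed.

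**Figure D4:**
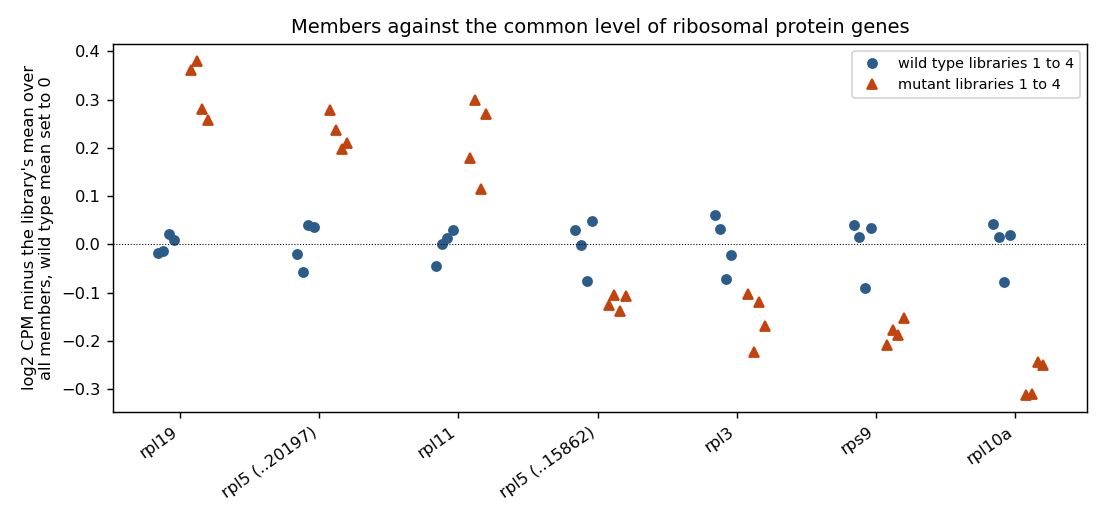
Log2 CPM of 7 members minus the mean over all members in the same library, with the wild type mean of each gene set to 0; the 7 were chosen after their values were seen; circles are wild type and triangles mutant libraries. For rpl19, rpl11 and the rpl5 copy ENSDARG00000020197 the mutant libraries lie above all wild type libraries, and for rpl10a, rps9, rpl3 and the rpl5 copy ENSDARG00000015862 below.

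The gene mdm2, for a ubiquitin ligase that Rpl5 and Rpl11 bind in mammals, was at 30.7 ± 2.14 CPM in wild type and 199.8 ± 39.7 CPM in the mutant (SD, n = 4 each), and rose by 2.70 ± 0.16 (SE) on the log2 scale. It passed in all 8 fits without 1 library. Of the other genes listed with the 5S particle, mdm4, rrs1 and heatr3 had log2 fold changes of -0.35, 0.39 and 0.26, and none passed (adjusted p = 0.0502, 0.137 and 0.145). Rrs1 takes part in loading the particle onto the large subunit, and mdm4 is a relative of mdm2.

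Most genes with a ribosomal protein name outside the symbol rule lay near the level of the members, with rpl22l1 below and rpl7l1 above it. Of 11 such genes, 5 fell and none rose, where 8.45% of all tested genes were called lower. Their median log2 fold change was -0.38. In the replicate block fit 9 fell, where 13.4% of all genes were called lower. The gene rpl22l1, a paralog of rpl22, fell most, to a mutant mean of 85.8 CPM from 148 CPM in wild type, a log2 fold change of -0.79 ± 0.11 (SE, adjusted p = 0.0019), with no overlap of the groups and a call in all 8 fits without 1 library. The others that fell were rplp2l (-0.43), the scaffold protein gene rack1 (-0.42), rpl36al (-0.39) and the gene listed as rps4y2 (-0.38), each of which lost its call in 6 or 7 of those 8 fits. The gene rpl7l1 was at 0.23 ± 0.13 (adjusted p = 0.24). These 11 were picked by symbol after their values had been seen. Of the 8 that were listed by role, 4 fell, and 6 with the block (median -0.39).

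Other parts of the translation apparatus did not share one direction. Of 65 mitochondrial ribosomal protein genes, whose products make the separate ribosome of the mitochondrion, 0 passed in either direction, and the median log2 fold change was 0.09. Their lowest adjusted p was that of mrps23 (0.53 ± 0.18, adjusted p = 0.075). Of 43 initiation factor genes 5 fell and 1 rose (median -0.01), including the genes of the eIF3 subunits eif3g (-0.58 ± 0.14), eif3m (-0.52 ± 0.14) and eif3d (-0.40 ± 0.10), while the poly(A) binding protein gene pabpc1b rose by 0.35 ± 0.09. The others that fell were eif3i (-0.47, adjusted p = 0.0387) and the RNA helicase gene eif4a1b (-0.37, adjusted p = 0.0433). For eif3i and eif4a1b, fits without 1 library are not given here. Of 15 elongation and termination genes 1 rose, the release factor gene etf1 (0.67 ± 0.18), and none fell (median -0.01). With the block these counts were 3 higher for mitochondrial ribosomal proteins, 8 higher and 11 lower for initiation, and 3 and 3 for elongation. Among all genes tested, 8.65% were called higher and 8.45% lower without the block, and 14% higher and 13.4% lower with it.

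Of 23 further genes listed as carrying the TOP motif, 2 fell and none rose, a share close to the 8.45% of all genes called lower. They were eif3g and rack1, the latter a ribosomal protein gene itself. The median log2 fold change was -0.22, against 0.01 over all genes, and 10 of the 23 fell with the block, where 13.4% of all genes were called lower. The elongation factor genes eef1g and eef1a1l1 were at -0.43 and -0.34, the nascent chain binding protein genes naca and btf3 at -0.46 and -0.50, and tpt1 and eef2 at -0.09 and -0.08. None of these 6 passed. The motif was not checked in the sequences of the 23 genes. The list also holds the La-related protein genes larp1b, larp4aa and larp4ab, at -0.13, 0.17 and 0.08. This list shares rack1 and a further gene with the ribosomal protein genes outside the rule, and eif3g, eef1g, eef1a1l1, eef2 and further factor genes with the initiation and elongation lists.

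Without the block, genes of ribosome production were called no more often than all tested genes, of which 17.1% were called. Of all tested genes 8.45% were called lower and 8.65% higher, and with the block 13.4% and 14%. Genes of TOR signalling, which governs the translation of TOP mRNAs, went both ways. In the list of rRNA synthesis and the nucleolus 1 of 30 genes fell, wdr43 (-0.48 ± 0.14), and the median was 0.05. Of 24 genes of ribosome assembly and export 2 fell and 1 rose (median -0.10). The fallen genes were ipo7, an importin that carries ribosomal proteins into the nucleus (-0.71 ± 0.16), and bysl (-0.49 ± 0.13), and the one that rose was grwd1, a chaperone of Rpl3 (0.52 ± 0.14). Of 23 genes of TOR and translational control 4 rose and 2 fell (median -0.13). The S6 kinase gene rps6kb1a rose by 0.83 ± 0.18 and passed in all 8 fits without 1 library, eif4ebp1, an inhibitor of cap-dependent translation, rose by 0.47 ± 0.11 and mtor by 0.44 ± 0.11, while the mTOR inhibitor gene deptor fell by 0.46 ± 0.12. The remaining calls, named after their values were seen, were sesn3, a sestrin that restrains mTOR (0.48 ± 0.13), and the eif4ebp3 copy ENSDARG00000054916. This relative of eif4ebp1 had the largest change of the list (-1.49 ± 0.43, adjusted p = 0.0432). For this copy and for sesn3 (adjusted p = 0.0374), fits without 1 library are not given here. The other eif4ebp3 copy, ENSDARG00000041607, did not pass (-0.66, adjusted p = 0.106), nor did rps6kb1b, a relative of rps6kb1a (-0.11, adjusted p = 0.544). With the block 5 rose and 8 fell in this list, 2 rose and 3 fell in the nucleolar list and 1 rose and 6 fell in the assembly list. Each of ipo7, bysl, grwd1, wdr43, eif4ebp1, mtor and deptor, and of etf1, pabpc1b, eif3g, eif3m, eif3d and rack1 before them, lost its call when mutant replicate 1, wild type replicate 1 or wild type replicate 2 was left out.

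**Figure D5:**
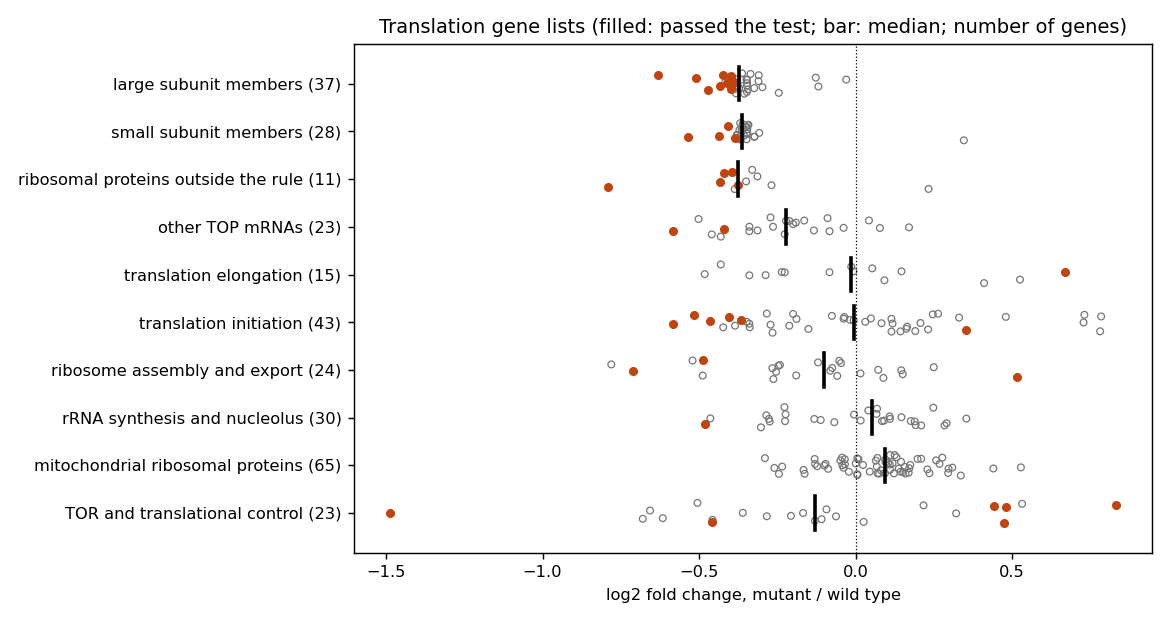
Log2 fold changes in the mutant against wild type of the large and small subunit genes and of 8 further lists, with the number of genes in brackets; each point is a gene, filled where it passed the test, and bars are medians. The medians of the subunits and of the ribosomal protein genes outside the rule lie together near -0.37. The TOP mRNA list has a median of -0.22, and the medians of the remaining lists lie between -0.13 and 0.09.

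Markers of several cell types differed between the groups as well. All 14 exocrine pancreas markers fell, from a summed 13080 to 33236 CPM in wild type to 107 to 244 CPM in the mutant. Of 11 epidermis markers 4 rose, with summed levels of 15683 to 24903 CPM in wild type and 21165 to 30798 CPM in the mutant. Fallen were 8 of 9 lens, 5 of 9 enterocyte, 4 of 7 lymphoid, 2 of 5 erythroid and 2 of 10 neuron markers. Of 9 leukocyte markers 4 fell and 1 rose, and of 11 hepatocyte markers 3 rose and 1 fell. The replicate block raised most of these counts, to 9 lens, 7 enterocyte, 6 lymphoid, 3 erythroid and 6 neuron markers fallen and 6 epidermis markers risen. In that fit 5 leukocyte markers fell and 2 rose, and 4 hepatocyte markers rose and 4 fell, where 13.4% of all genes were called lower and 14% higher. Among all tested genes 8.45% were called lower and 8.65% higher. Of 20 skeletal muscle markers 2 fell, close to the share of all genes, and none rose. With the block 7 rose and 2 fell, where 14% of all genes were called higher and 13.4% lower. The median log2 fold change of the muscle markers was 0.22. Their summed level was 72076 to 89778 CPM in wild type and 88378 to 98927 CPM in the mutant. No matched marker had 0 counts in all libraries. Of 18 cell proliferation genes 0 passed with edgeR (median -0.29), and 1, top2a, fell with the block. The top2a log2 fold change was -1.02 ± 0.35 (adjusted p = 0.0735), and ccna2 was at -0.93 ± 0.35 (adjusted p = 0.102). Over the list the summed level was highest in wild type replicate 3 at 1240 CPM, against 445 to 510 CPM in the other wild type libraries and 716 CPM in mutant replicate 3 against 416 to 558 CPM in the other mutant libraries. The part of cell composition and of proliferation in the ribosomal protein levels was not tested.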

How the data were processed

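Polyadenylated RNA of 8 samples of whole larvae was analysed, 4 per genotype. The deposited values are whole-number read counts per Ensembl gene. The submitters' processing notes name the aligner STAR, version 2.3.0e, and the counter HTSeq, version 0.6.0. Not given in the sources used here are the genome build, annotation, strand setting and handling of reads that match several genes. No member had the same counts in all libraries as another gene. Symbols came from a table naming 20769 of the IDs. Members and lists were chosen with earlier results of these data known.

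Genes were filtered with filterByExpr (minimum count 10) and library sizes were adjusted by TMM. The main test was edgeR's quasi-likelihood test (edgeR 4.0.16, R 4.3.3) on the genotype alone, with p-values adjusted after Benjamini and Hochberg over 27050 genes. Fallen and risen genes have an adjusted p under 0.05. CPM are TMM scaled, and standard errors follow from the fold change and F statistic. No transcript lengths were used, so levels are not compared between genes. The fit scaled to the members used their geometric mean count (plus 0.5) as library factor. A member was off the common shift if called there or at least 0.5 from its subunit median. Same-numbered samples deviated together from their group means (r = 0.202, 0.16, 0.608 and 0.399 for replicates 1 to 4), so the blocked fit is given. This pairing is seen in the data, not stated in the labels. It rests mainly on replicates 3 and 4. Mutant replicate 1 correlated about as well with wild type replicate 2 (0.196) as with its own number, and mutant replicate 2 slightly better with wild type replicates 1 (0.181) and 4 (0.173). Named were members off the common shift, the 3 highest and 3 lowest fold changes of each subunit, members listed by role, and up to 4 called genes per further list, or up to 2 where none was called. Some genes that meet this rule are not reported here. Other genes named were chosen after their values were seen. Of 418 list entries, 298 matched by symbol, 27 by a synonym in a RefSeq gene table and 13 without a final letter. The steps were also run on simulated counts. These were drawn independently for each gene, without the level that the members share from library to library. They therefore do not show how such a shared level affects the calls. Alternatives were other scalings, DESeq2 1.42.0, limma-voom (limma 3.58.1), other filters, the block, a stricter threshold, and leaving out libraries or genes with equal counts. A count of 0 allows up to 3 counts, which is 0.0532 to 0.0585 CPM at these depths and covers counting error only.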

Additional observations from a re-analysis of the deposited data

How the results depend on the processing

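The median log2 fold changes of both subunits kept their sign under every alternative run. With 1 library left out they were -0.44 to -0.32 for the large and -0.43 to -0.31 for the small subunit. The fall in the share of counts was then 15.3% to 21.4%. The counts of calls moved. Of all tested genes 8.45% were called lower in the main test, 7.99% with upper-quartile factors and 6.48% without a low count filter. For an adjusted p under 0.01 that share is not given here. Against 11 large subunit genes lower, there were 6 with upper-quartile factors or without a low count filter, 2 with library size only, 31 with DESeq2, 34 with limma-voom, 29 with the replicate block, 28 without both replicate 3 libraries, 0 at an adjusted p under 0.01, and 1 to 31 with 1 library left out. Against 4 small subunit genes lower, there were 1 with library size only, 26 with DESeq2, 27 with limma-voom, 27 with the replicate block, 21 without both replicate 3 libraries, 0 at an adjusted p under 0.01, and 0 to 26 with 1 library left out. Small subunit genes called higher were 0, or 1 without both replicate 3 libraries, and 0 to 1 with 1 library left out. Members off the common shift were 3, or 5 with limma-voom, 2 without a low count filter (rpl10a no longer passed), 1 at an adjusted p under 0.01 and 1 to 3 with 1 library left out. The log2 fold change of rpl19, -0.03, was 0.051 with library size only and -0.084 to 0.019 with 1 library left out, above 0 when wild type replicate 2 or mutant replicate 1 or 3 was the one omitted. The cause was not tested. The replicate block ended no call that the main test made among the genes named. Over the single genes named, 1495 values kept direction and call, 183 lost and 81 gained a call, and 4 changed sign.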

Other observations

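The large subunit gene rpl12, chosen after its values were seen, had mutant libraries on both sides of the wild type ones relative to the members' common level. Against the wild type mean, mutant replicates 1 to 4 lay at -0.09, -0.24, 0.23 and -0.04 on the log2 scale, while the wild type libraries lay between -0.08 and 0.05. Its SD over the 8 libraries after the common level was taken off was 0.13, where the median member had 0.04.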
